A study of Mus musculus with 9 samples.

Results

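Krüppel-like factors are a family of transcription factors that bind GC-rich and CACCC sequences in DNA through zinc fingers at the end of the protein. Members outside the DNA-binding part differ, and by it they are commonly sorted into transcriptional activators (KLF2, KLF4, KLF5, KLF6 and KLF7), repressors that recruit CtBP (KLF3, KLF8 and KLF12), members that recruit the Sin3A corepressor (KLF9, KLF10, KLF11, KLF13 and KLF16), and KLF15, which stands outside these groups. In skeletal muscle they are known for roles in myoblast fusion, in the control of muscle genes and in the use of amino acids and fat. Here 10 of these genes, Klf2, Klf3, Klf4, Klf5, Klf6, Klf7, Klf9, Klf10, Klf13 and Klf15, were taken by symbol from tables of 24063 gene symbols. All 10 were among the 14006 genes that passed the filter on low counts, and 1 transcript stood for each gene.

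The cells were wild-type C2C12, an established mouse myoblast line that fuses into muscle fibres in low serum, differentiated in DMEM with 2% FBS. RNA was sequenced at day 3 in 9 libraries, 3 from each of 3 groups. The 1C-MIM group received a mixture of 6 metabolites of the one-carbon network, the set of reactions that moves methyl and other one-carbon units. The scramble group received 6 metabolites that are not part of this network, and the control group stayed in normal medium. Which metabolites were used, at what doses, and how long before harvest they were added are not stated in the labels. A single immortal line stands for muscle fibres here, and the labels do not tie a group's libraries to separate cultures. The p-values therefore measure the spread among these libraries alone, and that spread may be technical.

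Count totals with 1 transcript per gene were 29.0 to 30.3 M in 1C-MIM libraries, 29.1 to 31.8 M in scramble libraries and 31.2 to 33.2 M in control libraries. Muscle was well represented: all 14 markers of differentiated muscle were detected, and their summed level was 9947 to 12033 CPM (counts scaled to a TMM-normalized library of 1000000) in 1C-MIM, 9339 to 12553 CPM in scramble and 8208 to 13980 CPM in control. Myog and Ckm rose, Mb, Cav3 and Mylpf fell and 9 were not called in 1C-MIM against both other groups. The library numbered 1 had the highest muscle sum of its group in all 3 groups, at 12033 CPM in 1C-MIM, 12553 CPM in scramble and 13980 CPM in control. Klf5 and Klf15 stood apart in the scramble and control libraries numbered 1 and are given with and without them. Of 8 markers of undifferentiated or dividing myoblasts, 6 fell and 1 (Pax7) rose in 1C-MIM against both other groups, and the sum was 682 to 823 CPM in 1C-MIM, 1337 to 1561 CPM in scramble and 1234 to 1614 CPM in control. The 6 fibroblast markers summed to 16269 to 16489 CPM in 1C-MIM, 7629 to 8228 CPM in scramble and 6551 to 7435 CPM in control; 4 of them were tested, Col3a1, Pdgfra and Dpt rose in both comparisons, and Tcf21 was at 0 in every library. The part of these markers in the results on Krüppel-like factors was not tested. Endothelial markers summed to at most 1.66 CPM in any library, with Tie1 at 0, although Tek rose in 1C-MIM (0.928 ± 0.16 CPM in 1C-MIM, 0.342 ± 0.069 CPM in scramble and 0.299 ± 0.10 CPM in control; SD, n = 3 each). Epithelial markers summed to at most 6.23 CPM, with Epcam at 0, Krt14 lower in 1C-MIM in both comparisons and Krt8 higher than in scramble. Macrophage and leukocyte markers summed to at most 12.8 CPM with none called, and adipocyte markers to at most 0.414 CPM, with Cidec at 0.

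Promoter sequences are shown for the pair of members that fell furthest (Klf4 and Klf6), for Klf2, the relative of Klf4, and for Klf15, the member with the largest increase. Each runs from 250 bases before to 50 bases after the gene's start on the strand of the gene, 5′ to 3′, and comes from RefSeq on build GRCm38.p6. Klf4 lies at chr4:55532426-55532725 on the minus strand, Klf6 at chr13:5861239-5861538, Klf2 at chr8:72318812-72319111 and Klf15 at chr6:90462326-90462625, the last 3 on the plus strand. Capitals mark the GC box GGGCGG, on either strand, and the E box CACGTG.
Klf4: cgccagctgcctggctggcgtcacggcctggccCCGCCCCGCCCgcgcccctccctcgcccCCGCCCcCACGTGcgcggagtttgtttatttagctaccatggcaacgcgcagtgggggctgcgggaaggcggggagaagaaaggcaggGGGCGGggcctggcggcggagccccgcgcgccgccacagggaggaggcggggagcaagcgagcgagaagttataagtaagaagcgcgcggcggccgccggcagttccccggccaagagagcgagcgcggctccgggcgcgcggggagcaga
Klf6: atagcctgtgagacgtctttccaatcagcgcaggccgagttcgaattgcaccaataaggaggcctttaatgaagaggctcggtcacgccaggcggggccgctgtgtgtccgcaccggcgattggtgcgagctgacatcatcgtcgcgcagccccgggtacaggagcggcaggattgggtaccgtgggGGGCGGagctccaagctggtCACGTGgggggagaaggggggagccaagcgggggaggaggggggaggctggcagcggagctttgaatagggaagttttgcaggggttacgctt
Klf2: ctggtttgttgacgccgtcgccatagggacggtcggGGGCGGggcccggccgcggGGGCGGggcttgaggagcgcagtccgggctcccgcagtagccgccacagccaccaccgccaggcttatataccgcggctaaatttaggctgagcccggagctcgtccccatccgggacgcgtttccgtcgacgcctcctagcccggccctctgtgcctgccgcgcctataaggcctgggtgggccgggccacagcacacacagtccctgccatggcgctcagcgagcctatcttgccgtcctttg
Klf15: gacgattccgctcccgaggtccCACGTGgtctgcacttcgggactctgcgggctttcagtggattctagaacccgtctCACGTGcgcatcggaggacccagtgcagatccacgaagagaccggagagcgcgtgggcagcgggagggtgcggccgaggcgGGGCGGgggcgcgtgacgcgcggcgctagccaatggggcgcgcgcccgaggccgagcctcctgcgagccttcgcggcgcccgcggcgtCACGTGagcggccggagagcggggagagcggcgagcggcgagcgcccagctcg

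Promoters of 8 of the 10 members were in the RefSeq table, all but Klf5 and Klf10. The GC box, read on both strands, was in 7 of the 8 (all but Klf9) and in 35.7% of 32851 promoters of the same length. Another binding sequence of the family, CACCC, was in 6 of the 8 (all but Klf4 and Klf6) and in 57.5% of all promoters. The E box CACGTG, the sequence bound by clock and MYC-type factors, was in Klf4, Klf6 and Klf15, with 1, 1 and 3 matches, and in 7.15% of all promoters. The MEF2 site was in Klf2 alone of the 8 and in 3.19% of all promoters, and CCAAT was in 4 of the 8 (Klf6, Klf9, Klf13 and Klf15) and in 37.4%. No member's window held TATAAA, the cAMP response element TGACGTCA, the CArG box or the palindromic glucocorticoid response element, which were in 13.6%, 1.79%, 1.63% and 0.00913% of all promoters. The GC and CACCC matches can lie side by side but share no full match, and 2 of the 4 GC boxes of Klf4 overlap by 1 base.

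Per transcript length, the authors' TPM values put Klf6 and Klf3 at the top of the family and Klf7 and Klf15 at the bottom. In 1C-MIM the highest was Klf3, at 51.5 TPM, followed by Klf5 at 35.6, Klf6 at 35.1, Klf9 at 24.8, Klf13 at 23.0, Klf4 at 21.9, Klf2 at 18.7, Klf10 at 15.0, Klf7 at 6.84 and Klf15 at 1.13 TPM. The SD over 3 libraries was 1.4 TPM for Klf3, 0.48 for Klf5 and 0.85 for Klf6. Of neighbours in that order, Klf5 and Klf6 alone overlapped between libraries. In scramble the order was Klf6 (57.0 TPM), Klf3 (44.5), Klf4 (37.1), Klf2 (26.2), Klf5 (25.4), Klf13 (25.0), Klf9 (22.9), Klf10 (20.2), Klf7 (9.27) and Klf15 (0.717 TPM), and the overlapping neighbours were Klf2 with Klf5 and Klf5 with Klf13. In control the order was Klf6 (56.9 TPM), Klf3 (42.7), Klf4 (36.9), Klf5 (28.0), Klf13 (24.3), Klf2 (23.2), Klf9 (22.8), Klf10 (21.9), Klf7 (9.64) and Klf15 (0.587 TPM), and every pair of neighbours from Klf4 down to Klf10 overlapped. The SD was widest for Klf5, at 4.8 TPM in scramble and 9.3 TPM in control, where Klf6 had 1.6 and 1.7 TPM. Thus, with 1 transcript per gene, Klf6 ranked at place 1 and Klf4 at place 3 in scramble and control, and at places 3 and 6 in 1C-MIM. Klf10, at place 8 in each group, is the member that this choice affects. Summed over its 2 transcripts it had 25.4 TPM in 1C-MIM, 34.4 TPM in scramble and 37.1 TPM in control. That sum would put Klf10 above Klf9 in 1C-MIM, above Klf2 in scramble and above Klf4 in control. The first place of Klf3 in 1C-MIM is a description of TPM levels, with no test.

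**Figure D1:**
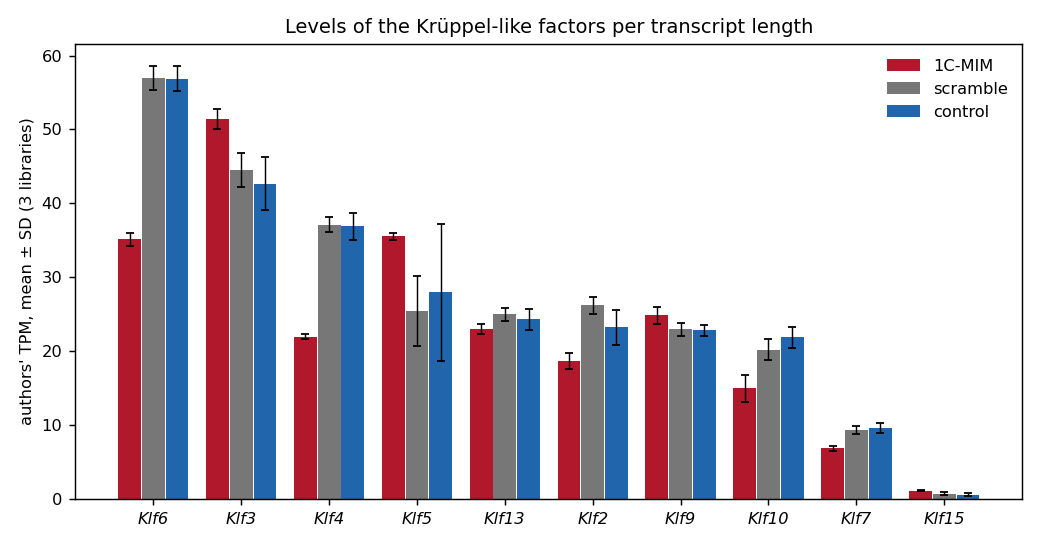
Level of each Krüppel-like factor in the authors' TPM (vertical axis), as the mean of 3 libraries in 1C-MIM, scramble and control, with bars from 0 and error lines of 1 SD. Klf6 has 35.1 TPM in 1C-MIM against 57.0 in scramble and 56.9 in control, while Klf3 has 51.5 TPM in 1C-MIM against 44.5 in scramble and 42.7 in control.

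The summed TPM of the 10 members, with 1 transcript per gene, was 237, 231 and 233 in the 3 1C-MIM libraries. It was 276, 263 and 266 in the 3 scramble libraries, and 282, 256 and 262 in the 3 control libraries. The shares below are of this sum, without the second transcript of Klf10. Every 1C-MIM library was below every library of the other groups, with means of 234 ± 3.3 TPM in 1C-MIM, 268 ± 7.0 TPM in scramble and 267 ± 14 TPM in control (SD, n = 3 each). Klf6 made up 15.0 ± 0.18% of this sum in 1C-MIM, 21.2 ± 0.86% in scramble and 21.4 ± 1.5% in control. Klf4 made up 9.39 ± 0.24% in 1C-MIM, 13.8 ± 0.70% in scramble and 13.8 ± 1.0% in control. The share of Klf3 was 22.0 ± 0.57% in 1C-MIM, 16.6 ± 0.70% in scramble and 16.0 ± 0.56% in control. In bulk RNA, fewer cells of a type and less RNA per cell cannot be told apart, and this holds for every level given here.

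Against control, 7 of the 10 members were called at an adjusted p below 0.05 (edgeR's quasi-likelihood test with Benjamini-Hochberg adjustment over all tested genes, which gave every adjusted p below), 2 higher (Klf3 and Klf15) and 5 lower (Klf2, Klf4, Klf6, Klf7 and Klf10) in 1C-MIM. Of all 14006 genes, 47.3% were called in that comparison, 22.9% higher and 24.3% lower. Against scramble, 8 were called, the same 7 in the same directions and Klf13, which was lower; of all genes, 46% were called, 22.9% higher and 23.2% lower. Both comparisons use the same 1C-MIM libraries and are not independent. The members' median log2 fold change was -0.21 against control and -0.30 against scramble, where all tested genes had medians of -0.01 and -0.00. Their median absolute log2 fold change was 0.43 against control and 0.46 against scramble, where all genes had 0.23 in both. Since the members were chosen with earlier results of these data known, these comparisons with all genes are a description and no test of the family. The library ranges did not overlap for 9 of the 10 members in either comparison, as for 55.5% of all genes against control and 59.5% against scramble. No member reached a 2-fold difference, and 7.13% of all genes were called with at least that difference against control and 6.73% against scramble.

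**Figure D2:**
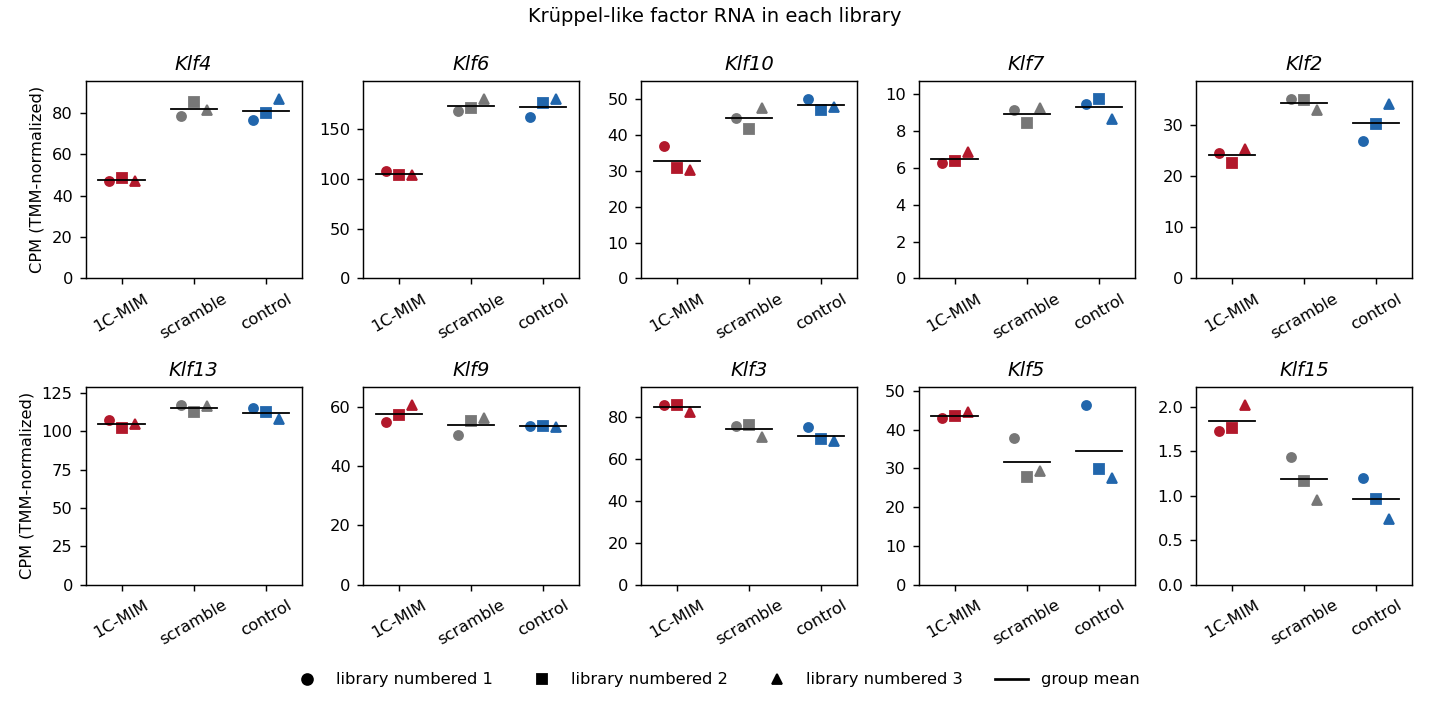
CPM of each member (vertical axes, from 0, on a scale of their own) in the 9 libraries, by group; marker shape gives the library number and the line the group mean. Klf4 and Klf6 lie at 46.9 to 48.3 and 104 to 108 CPM in 1C-MIM, below all scramble and control libraries, and the libraries numbered 1 of scramble and control are the highest of their groups for Klf5 and Klf15.

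Among the activators, Klf4, a factor of epithelial differentiation and of reprogramming to pluripotency that also promotes myoblast fusion, fell furthest. Its level was 47.1, 48.3 and 46.9 CPM in 1C-MIM libraries, 78.5, 85.1 and 81.2 CPM in scramble libraries, and 76.4, 79.8 and 86.6 CPM in control libraries. The 1C-MIM libraries lay within 2 CPM of each other and far below the lowest library of either other group. The log2 fold change was -0.77 ± 0.06 against control (SE; adjusted p = 3e-06) and -0.78 ± 0.06 against scramble (adjusted p = 3.3e-06), a level 41.4% and 41.9% lower.

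Klf6, an early-response gene and growth suppressor that is broadly expressed, fell by nearly as much. It had 108, 104 and 104 CPM in 1C-MIM libraries, 169, 171 and 181 CPM in scramble libraries, and 162, 177 and 180 CPM in control libraries. The 1C-MIM values were all lower than any other and the scramble and control values overlapped. The log2 fold change was -0.72 ± 0.05 against control (adjusted p = 2.8e-06) and -0.72 ± 0.05 against scramble (adjusted p = 3.1e-06). Klf4 and Klf6 also had the most alike profiles of any pair of members: the root mean square difference of their centred log2 CPM over 9 libraries was 0.05, where the next pairs, Klf3 with Klf9 and Klf7 with Klf10, had 0.10 and 0.12. The small distance of Klf3 and Klf9 goes with little spread of their own: the SD of log2 CPM over the 9 libraries was 0.12 and 0.07. For Klf4 and Klf6 it was 0.39 and 0.36. As printed above, the promoters of Klf4 and Klf6 each hold 1 CACGTG and no CACCC. They differ in other matches: Klf4 has 4 GC boxes and no CCAAT, and Klf6 has 1 GC box and 4 CCAAT. The promoter of Klf15, which rose, holds 3 CACGTG. The part of these sequences in the levels was not tested.

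Klf7, known for its role in the growth of neurons, was expressed at a low level and fell. It had 6.27, 6.35 and 6.87 CPM in 1C-MIM libraries, 9.14, 8.43 and 9.23 CPM in scramble libraries, and 9.47, 9.72 and 8.63 CPM in control libraries. All 1C-MIM libraries were the lowest, and the log2 fold change was -0.51 ± 0.09 against control (adjusted p = 0.00079) and -0.46 ± 0.09 against scramble (adjusted p = 0.0017). Klf7 shares exon sequence with the non-coding genes Gm13748 and Gm26649 on the opposite strand in GENCODE M21, so without knowledge of strand in the counting its reads cannot be separated from theirs.

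Klf2, the factor of endothelial quiescence that the ERK5 kinase and MEF2 switch on, fell in both comparisons. Its libraries had 24.5, 22.6 and 25.2 CPM in 1C-MIM, 35.1, 34.9 and 33.0 CPM in scramble, and 26.9, 30.1 and 34.2 CPM in control. The 1C-MIM libraries were below all others, though the control library numbered 1 came close to them. The log2 fold change was -0.33 ± 0.08 against control (adjusted p = 0.007) and -0.51 ± 0.08 against scramble (adjusted p = 0.00058). With single libraries left out the value against control ran from -0.42 to -0.24. The -0.42 came without the control library numbered 1 (adjusted p = 0.00030). That library was the lowest of its group for Klf2, so leaving it out widens the difference by construction. Over all settings the adjusted p against control was at most 0.035. The difference between scramble and control was 0.17 ± 0.08, with the smallest unadjusted p of the members, 0.057, and it was not called.

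Klf5, an activator that works with C/EBP factors in fat cells and with muscle regulators in fusing myoblasts, was not called in either comparison. It had 43.0, 43.4 and 44.5 CPM in 1C-MIM libraries, 37.7, 27.8 and 29.2 CPM in scramble libraries, and 46.3, 29.8 and 27.5 CPM in control libraries. The 1C-MIM libraries were tightly grouped, whereas the library numbered 1 stood above the other 2 in scramble and control, by 0.40 and 0.69 in log2 CPM. The log2 difference was 0.34 ± 0.19 against control (adjusted p = 0.18), with overlapping libraries, and 0.46 ± 0.19 against scramble (adjusted p = 0.082), with every 1C-MIM library higher. Without the control library numbered 1 it was 0.61 against control (adjusted p = 0.0011) and 0.46 against scramble (adjusted p = 0.0026), and without the scramble library numbered 1 it was 0.61 against scramble (adjusted p = 0.046). Without all libraries numbered 1, which left 2 per group, the log2 difference was 0.62 in both comparisons. The adjusted p was then 3.6e-08 against control and 4.4e-08 against scramble. The scramble and control libraries numbered 1 stood apart by Klf5 itself. Leaving them out widens its difference and narrows its spread by construction, so these adjusted p-values are not separate support for a rise. The libraries numbered 1 had the highest muscle marker sum in each of the 3 groups, and Klf5 was the highest in them in scramble and control and the lowest in 1C-MIM; the part of the muscle markers in the values of Klf5 was not tested.

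Among the repressors that recruit CtBP, Klf3, which is known to act at muscle gene promoters with serum response factor, rose. It had 85.8, 85.8 and 82.4 CPM in 1C-MIM libraries, 76.0, 76.1 and 70.7 CPM in scramble libraries, and 75.3, 69.5 and 68.4 CPM in control libraries. All 1C-MIM libraries were higher than any other. The log2 fold change was 0.25 ± 0.05 against control (adjusted p = 0.0024) and 0.19 ± 0.05 against scramble (adjusted p = 0.013). Without the scramble library numbered 3 the value against scramble was 0.15 (adjusted p = 0.058). Klf3 overlaps the non-coding Gm20033 on the opposite strand, with the same limit as for Klf7.

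Of the members that recruit Sin3A, Klf10, a gene induced early by TGF-beta, fell. Its main transcript had 36.9, 30.7 and 30.1 CPM in 1C-MIM libraries, 44.7, 41.5 and 47.4 CPM in scramble libraries, and 49.9, 47.0 and 47.6 CPM in control libraries. The 1C-MIM libraries were all lower, with the library numbered 1 nearest to the other groups. The log2 fold change was -0.57 ± 0.08 against control (adjusted p = 0.00021) and -0.45 ± 0.08 against scramble (adjusted p = 0.00098). Klf10 was the single member listed with a second, shorter transcript. That transcript had 15.9 ± 2.4 CPM in 1C-MIM, 22.0 ± 1.1 CPM in scramble and 23.5 ± 1.3 CPM in control, and its count was 45.8 to 50.2%, 48.8 to 50.8% and 47.0 to 49.7% of that of the long one in those groups. These shares overlapped between the groups. Since shared exons may be counted under both transcripts, they are not 2 separate measurements.

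Klf13, known from T cells and the developing heart, differed little between the groups. Per transcript length it stood in the middle of the family, at 23.0 TPM in 1C-MIM, 25.0 TPM in scramble and 24.3 TPM in control. It had 107, 102 and 105 CPM in 1C-MIM libraries, 117, 112 and 117 CPM in scramble libraries, and 115, 113 and 108 CPM in control libraries. All 1C-MIM libraries were below the others, and the log2 difference was -0.14 ± 0.04 against scramble (adjusted p = 0.023), which was called, and -0.10 ± 0.04 against control (adjusted p = 0.094), which was not. The call against scramble was lost without any one of the 1C-MIM libraries numbered 2 or 3 or the scramble libraries numbered 1 or 3, with values from -0.14 to -0.12 and adjusted p of 0.087, 0.063, 0.064 and 0.071.

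Klf9, a target of thyroid hormone and of the glucocorticoid receptor, was not called in either comparison. It had 54.9, 57.3 and 60.6 CPM in 1C-MIM libraries, 50.6, 55.4 and 56.1 CPM in scramble libraries, and 53.7, 53.7 and 53.3 CPM in control libraries. The 1C-MIM libraries were above all control libraries and overlapped with those of scramble. The log2 difference was 0.10 ± 0.06 against control (adjusted p = 0.15) and 0.09 ± 0.06 against scramble (adjusted p = 0.20). Without the libraries numbered 1 it was 0.14 against control (adjusted p = 0.020). The 1C-MIM library numbered 1 was the lowest of its group for Klf9, so leaving it out widens the difference by construction.

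Klf15, a glucocorticoid-induced regulator of branched-chain amino acid breakdown and of fat use in muscle, rose by the largest fold and had the lowest level of the 10. Its counts were 49, 51 and 60 in 1C-MIM libraries, 46, 34 and 28 in scramble libraries, and 38, 31 and 25 in control libraries. These correspond to 1.73, 1.76 and 2.02 CPM in 1C-MIM, 1.44, 1.16 and 0.950 CPM in scramble, and 1.20, 0.960 and 0.744 CPM in control. Every 1C-MIM library was higher than any other, and the libraries numbered 1 were the highest of scramble and control, while that of 1C-MIM was the lowest of its group. The log2 fold change was 0.93 ± 0.23 against control (adjusted p = 0.0064), a fold of 1.90, and 0.63 ± 0.22 against scramble (adjusted p = 0.04), a fold of 1.54. Without the libraries numbered 1 it was 1.148 against control (adjusted p = 0.0018) and 0.84 against scramble (adjusted p = 0.015). Without the control library numbered 1 it was 1.104 against control (adjusted p = 0.0027), and without the scramble library numbered 1 it was 0.80 against scramble (adjusted p = 0.029). Klf15 itself was highest in these scramble and control libraries, so leaving them out widens its difference by construction. At these counts the call against scramble was lost without the 1C-MIM library numbered 1, 2 or 3, the scramble library numbered 2 or 3, or the control library numbered 2, with values from 0.49 to 0.67 and adjusted p from 0.056 to 0.14. It was also lost with DESeq2 (0.63, adjusted p = 0.057).

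**Figure D3:**
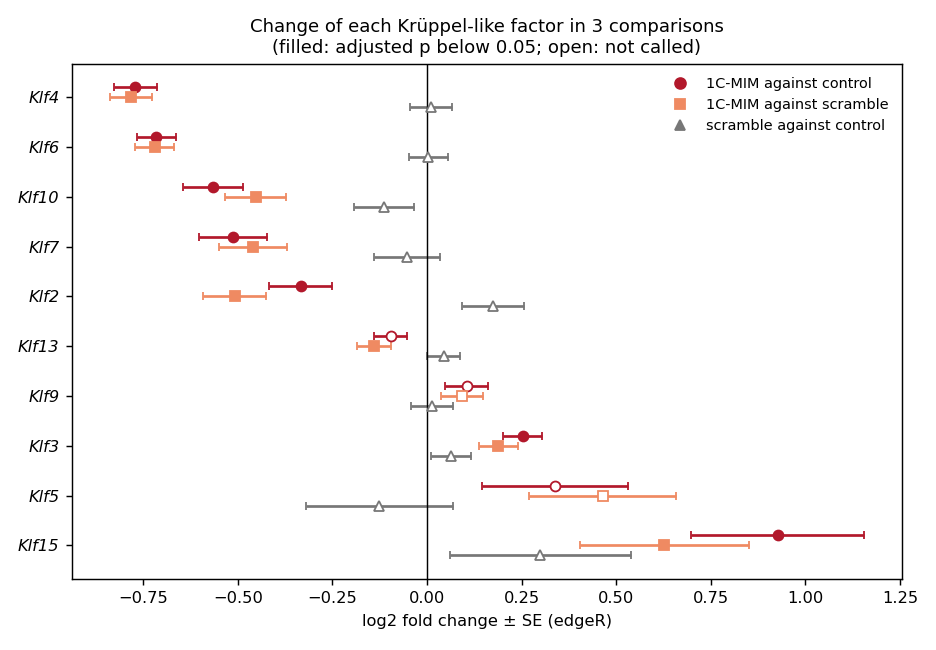
Log2 fold change ± SE from edgeR (horizontal axis) of each member in 1C-MIM against control, 1C-MIM against scramble and scramble against control; filled symbols have an adjusted p below 0.05. Klf4 and Klf6 lie between -0.78 and -0.72 in both comparisons of 1C-MIM, Klf3 and Klf15 lie above 0, and no symbol of scramble against control is filled.

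The scramble mixture was set against normal medium to show what unrelated metabolites gave. No member was called, nor was any gene of the lists described below, all 10 had overlapping libraries, and the largest log2 difference was 0.30 ± 0.24, in Klf15. The members' median absolute difference was 0.06, as over all genes. Of all 14006 genes, 0% were called by edgeR, with 482 at an unadjusted p under 0.05 and 9.09% with libraries that did not overlap. The count of called genes was 30 by DESeq2 and 0 by limma-voom. For Klf4 and Klf6 the scramble minus control difference was 0.01 ± 0.06 and 0.00 ± 0.05, while for Klf5 it was -0.13 ± 0.19, so the spread of Klf5 leaves room for a larger difference than that of Klf4 or Klf6.

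Genes with the profile nearest to each member were sought among the 10919 genes averaging 5 CPM or more, by the root mean square difference of centred log2 CPM over the 9 libraries. For Klf4 they were Cast (calpastatin, the inhibitor of calpain proteases, 0.04), Aldh9a1 and Iqgap1, and for Klf6 Carhsp1 (0.03), Rcor2 and Stx2. For Klf10 they were Ripk3, Evi5l and Arvcf (0.06 each), for Klf7 2200002D01Rik, Myoz2 (a protein of the muscle Z-disc, 0.05) and Rin1, and for Klf2 Fam149a, Rhog and Bcor (0.06 to 0.07). Nearest to Klf3 were Bcl9, Pip5k1a and Stard13 (0.03 each), to Klf9 Cnot2, Pdha1 and Zc3h15 (0.03 each), and to Klf13 Rnh1, Zfand3 and Nckap1 (0.02 to 0.03). Nearest to Klf5 were Kdm7a, Anxa11 and Chrnb1, a subunit of the muscle acetylcholine receptor (0.07 to 0.08). The profile of Klf15 had no neighbour so close by this measure: Sema6a was at 0.09, and Sobp and Unc93b1 at 0.14. The measure is not scaled by a gene's own spread, so distances cannot be ranked between members. The SD of log2 CPM over the 9 libraries was 0.46 for Klf15 and 0.07 for Klf9 and for Klf13.

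The counts of called genes in the lists that follow stand beside 22.9% called higher and 24.3% called lower over all genes against control, and 22.9% and 23.2% against scramble; a split between both directions is thus also that of all genes. Of the 7 other Krüppel-like factors in the mouse tables, 3 were tested and all 3 fell in 1C-MIM against control, with a median of -0.30. Klf12, another CtBP-binding repressor, had 1.152 ± 0.25 CPM in 1C-MIM, 3.28 ± 0.37 CPM in scramble and 2.80 ± 0.37 CPM in control, and its log2 fold change was -1.28 ± 0.20 against control (adjusted p = 0.00033) and -1.51 ± 0.19 against scramble (adjusted p = 0.00012). So Klf3 and Klf12, both recruiters of CtBP, went in opposite directions. The Sin3A-binding Klf11 and Klf16 had smaller decreases, -0.30 ± 0.11 (adjusted p = 0.037) and -0.18 ± 0.07 (adjusted p = 0.043) against control, and were not called against scramble. The count of 3 was 1 without any one of the 1C-MIM libraries numbered 1 or 2, the scramble library numbered 3 or the control library numbered 3. Klf1 and Klf8 did not pass the filter, and Klf14 and Klf17 had a count of 0 in every library, which allows up to 3 counts, or 0.0892 to 0.106 CPM, per library for counting error alone.

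The Sp factors, which share the zinc fingers and the GC box with the Krüppel-like factors, were mostly lower: of 9 listed, 7 were tested, and 5 fell and 1 rose against control and against scramble, with medians of -0.42 and -0.44. Sp1 and Sp3, the broadly expressed pair, had 177 ± 1.9 and 105 ± 2.1 CPM in 1C-MIM, 182 ± 2.9 and 119 ± 6.7 CPM in scramble, and 182 ± 1.9 and 118 ± 6.8 CPM in control. Sp1 was the gene not called (-0.04 ± 0.04, adjusted p = 0.40 against control), while Sp3 fell by a small amount (-0.17 ± 0.06, adjusted p = 0.026). Sp4 fell (-0.42 ± 0.10, adjusted p = 0.0051) and Sp2 rose (0.27 ± 0.06, adjusted p = 0.0054). The low-level Sp6, known from tooth and skin, fell (-0.90 ± 0.12, adjusted p = 0.00018), with 5.27 ± 0.90 CPM in 1C-MIM, 8.55 ± 0.41 CPM in scramble and 9.82 ± 0.96 CPM in control. Sp8 fell also (-1.17 ± 0.21, adjusted p = 0.0011). Sp7, the bone-forming factor osterix, was called lower on counts of 2, 0 and 2 in 1C-MIM, 23, 19 and 16 in scramble, and 19, 13 and 18 in control. Sp5 had a count of 0 throughout and Sp9 did not pass the filter.

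Of 16 corepressors, coactivators and ubiquitin ligases through which the family acts or is regulated, 5 rose and 4 fell against control (median 0.01), and 3 rose and 5 fell against scramble (median 0.04). The acetyltransferase gene Crebbp had 65.0 ± 0.75 CPM in 1C-MIM, 43.9 ± 3.3 CPM in scramble and 40.1 ± 2.2 CPM in control (log2 fold change against control 0.70 ± 0.06, adjusted p = 1e-05). The 2 CtBP genes went in opposite directions. Ctbp1 rose by 0.24 ± 0.04 against control (adjusted p = 0.00093), while Ctbp2 fell (-0.30 ± 0.07, adjusted p = 0.005). Against scramble Ctbp2 fell as well (-0.29 ± 0.07, adjusted p = 0.0061). Sin3b, a relative of Sin3a, rose by 0.29 ± 0.05 against control (adjusted p = 0.0011). Wwp1, a ubiquitin ligase that acts on KLF2 and KLF5, fell (-0.35 ± 0.05, adjusted p = 0.00044). The count that rose against control was 3 without the control library numbered 2; against scramble it was 5 without the scramble library numbered 1, and the count that fell was 3 without the 1C-MIM library numbered 3 or the scramble library numbered 2.

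Of 13 genes around ERK5, MEF2 and the targets of KLF2 and KLF4, 6 rose and 2 fell in both comparisons, beside the decrease of Klf2 and Klf4, with medians of 0.08 against control and 0.03 against scramble. The cell cycle inhibitor Cdkn1c rose to 84.1 ± 12 CPM in 1C-MIM, with 7.49 ± 0.62 CPM in scramble and 6.86 ± 0.11 CPM in control (3.62 ± 0.11 against control, adjusted p = 5.9e-08). The sphingosine phosphate receptor gene S1pr1, a KLF2 target in lymphocytes and endothelium, had 153 ± 14 CPM in 1C-MIM, 58.2 ± 1.1 CPM in scramble and 56.3 ± 1.9 CPM in control (1.44 ± 0.07, adjusted p = 2.1e-07). Thrombomodulin, Thbd, an endothelial target of KLF2, varied widely in 1C-MIM, at 328 ± 150 CPM, against 65.9 ± 4.3 CPM in scramble and 59.1 ± 1.4 CPM in control (2.47 ± 0.35, adjusted p = 0.0011). Of the MEF2 genes themselves, Mef2a (1.06 ± 0.16, adjusted p = 0.00053) and Mef2d (0.52 ± 0.11, adjusted p = 0.0039) rose and Mef2c fell (-0.80 ± 0.20, adjusted p = 0.013). Nephronectin, Npnt, an adhesion protein described as a target of KLF2 and KLF4 in fusing C2C12 cells, fell, with 175 ± 21 CPM in 1C-MIM, 255 CPM on average in scramble and 244 CPM in control (-0.48 ± 0.11, adjusted p = 0.0051).

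The glucocorticoid pathway, which induces Klf9 and Klf15 in many tissues, had 19 genes tested, of which 7 rose and 8 fell in both comparisons, with medians of 0.13 against control and 0.12 against scramble, and Zbtb16 was at 0 in all libraries. The receptor gene Nr3c1 fell, with 113 ± 2.4 CPM in 1C-MIM, 142 ± 4.6 CPM in scramble and 144 ± 2.8 CPM in control (-0.35 ± 0.04 against control, adjusted p = 8.3e-05). Pdk4, the kinase that shuts off pyruvate dehydrogenase, fell to 21.0 ± 2.2 CPM in 1C-MIM, against 40.96 ± 1.9 CPM in scramble and 41.4 ± 1.0 CPM in control (-0.98 ± 0.07, adjusted p = 4.1e-06). Fbxo32, the atrophy ubiquitin ligase, rose (0.66 ± 0.07, adjusted p = 4.1e-05), as did Pik3r1 (0.46 ± 0.06, adjusted p = 0.00017).

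Genes of amino acid and fuel metabolism known as targets of KLF15 were measured beside it. Of 19 tested, 8 rose and 4 fell against control (median 0.07), and 6 rose and 5 fell against scramble (median -0.02), while Tat was at 0. Gpt2, the mitochondrial alanine aminotransferase, had 250 ± 22 CPM in 1C-MIM, 48.8 ± 3.4 CPM in scramble and 52.6 ± 8.9 CPM in control (2.25 ± 0.12 against control, adjusted p = 1.1e-06). Gpt, the other alanine aminotransferase gene of the list, fell (-0.78 ± 0.19 against control, adjusted p = 0.0056). Bckdha, of the enzyme complex that commits branched-chain amino acids to breakdown, rose (0.67 ± 0.05, adjusted p = 2.2e-06). Bcat2, of the same breakdown, was not called against control (-0.17 ± 0.07, adjusted p = 0.059) and was lower than in scramble (-0.19 ± 0.07, adjusted p = 0.04). The fatty acid carriers Cd36 (-1.08 ± 0.16, adjusted p = 0.00036) and Fabp3 (-0.63 ± 0.10, adjusted p = 0.00037) fell. The count that fell against scramble was 3 without any one of the 1C-MIM libraries numbered 2 or 3 or the scramble library numbered 1.

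**Figure D4:**
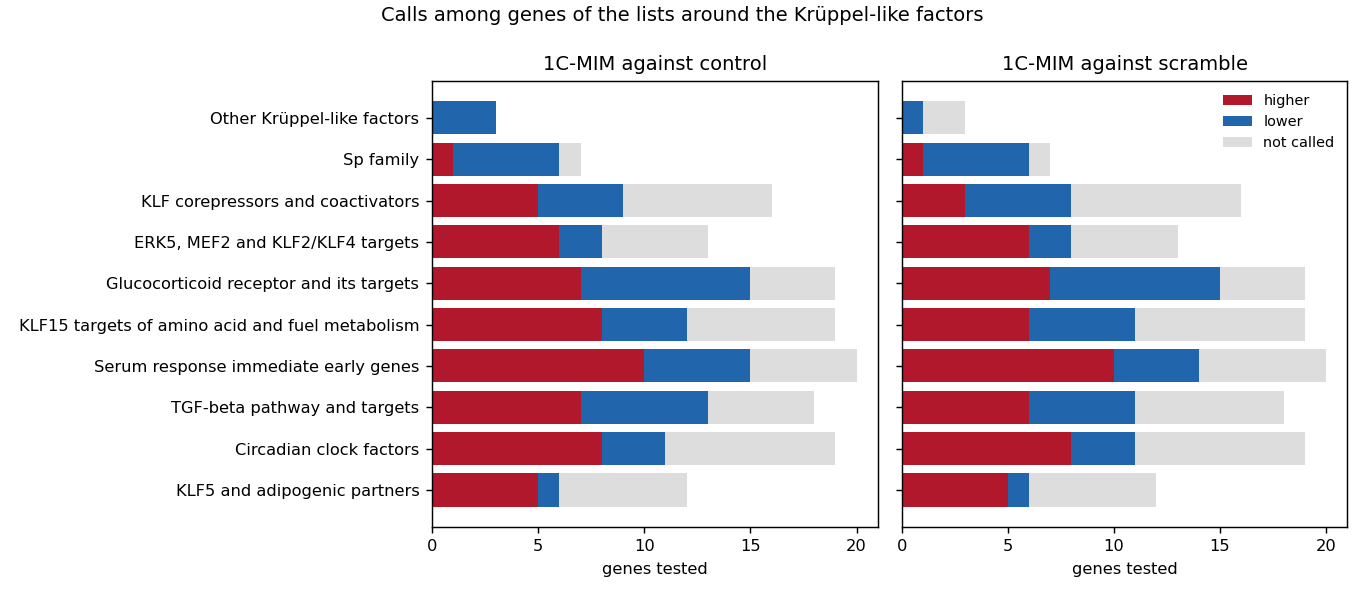
Number of tested genes (horizontal axis) called higher, called lower or not called in 1C-MIM against control (left) and against scramble (right), for 10 lists around the Krüppel-like factors. The Sp family and the other Krüppel-like factors hold mainly lower calls, and the remaining lists hold calls in both directions.

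Immediate early genes, the class of serum-induced genes to which Klf2, Klf4, Klf6 and Klf10 also belong, mostly rose where they were called. Of 20, 10 rose and 5 fell against control (median 0.24), and 10 rose and 4 fell against scramble (median 0.27). Fosl2, of the AP-1 factors, had 317 ± 2.4 CPM in 1C-MIM, 214 ± 5.3 CPM in scramble and 214 ± 6.1 CPM in control (0.57 ± 0.04 against control, adjusted p = 4.5e-06). Srf, the serum response factor itself, rose (0.44 ± 0.06, adjusted p = 0.00017). Maff (-0.98 ± 0.13, adjusted p = 0.00017) and the stress gene Atf3 (-0.83 ± 0.12, adjusted p = 0.00027) fell. The count that fell against control was 3 without the control library numbered 2 or 3.

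In the TGF-beta pathway, which induces Klf10, 7 of 18 tested genes rose and 6 fell against control (median 0.06), and 6 rose and 5 fell against scramble (median 0.01). The receptor gene Tgfbr2 (0.55 ± 0.04, adjusted p = 4.3e-06) and the signal carrier Smad3 (0.74 ± 0.06, adjusted p = 6.3e-06) rose. Of the pathway's targets, Tgfbi rose to 7.21 ± 2.3 CPM in 1C-MIM, against 2.09 ± 0.17 CPM in scramble and 2.05 ± 0.16 CPM in control (1.82 ± 0.22, adjusted p = 6.9e-05). Other genes of the list fell against control. Among them were Id1 (-0.79 ± 0.11, adjusted p = 0.00022), Id2 (-0.76 ± 0.12, adjusted p = 0.00067) and Id3 (-0.33 ± 0.08, adjusted p = 0.0077). Smad7 (-0.32 ± 0.09, adjusted p = 0.0095) and Skil (-0.28 ± 0.05, adjusted p = 0.0006) fell also.

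Among 19 tested clock factors, the class that times Klf9, Klf10 and Klf15 in several tissues, 8 rose and 3 fell in both comparisons, with medians of 0.02 against control and 0.07 against scramble. The output factor Hlf rose to 25.9 ± 7.9 CPM in 1C-MIM, against 1.68 ± 0.23 CPM in scramble and 1.61 ± 0.11 CPM in control (4.01 ± 0.24, adjusted p = 2.2e-06). The period genes went apart. Per1 (0.37 ± 0.06, adjusted p = 0.00085) and Per2 (0.85 ± 0.09, adjusted p = 2.5e-05) rose, and Per3 fell (-1.05 ± 0.12, adjusted p = 7.2e-05). Npas2 fell at a low level (-2.15 ± 0.31, adjusted p = 0.00022).

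Of 12 tested partners of KLF5 in fat cell formation and fat use, 5 rose and 1 fell in both comparisons, with medians of 0.22 against control and 0.20 against scramble. Cebpb, which works upstream of Klf5 in fat cell formation, had 108 ± 6.5 CPM in 1C-MIM, 66.2 ± 1.4 CPM in scramble and 66.9 ± 12 CPM in control (0.69 ± 0.11 against control, adjusted p = 0.00055). The retinoid X receptor genes Rxrb (0.46 ± 0.05, adjusted p = 3.3e-05) and Rxra (0.35 ± 0.05, adjusted p = 0.00021) rose. Ppargc1a, the coactivator of mitochondrial genes, rose at a low level (1.41 ± 0.29, adjusted p = 0.0021), with 2.16 ± 0.55 CPM in 1C-MIM, 0.831 ± 0.24 CPM in scramble and 0.813 ± 0.24 CPM in control. Fabp4 and Plin1, late fat cell genes, did not pass the filter. The count of 1 that fell against control was 0 without any one of the 1C-MIM libraries numbered 2 or 3 or the control library numbered 1, and 2 without the control library numbered 3; against scramble it was 2 without the control library numbered 1 or 3.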

How the data were processed

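The authors deposited 9 tables of C2C12 RNA, 1 per library, which per the file headers hold counts, FPKM and TPM values of 33984 transcripts. Per the labels' protocols, libraries were made from 1.3 µg of total RNA with a SMARTer kit. Per the submitters' processing notes, the tools were STAR, featureCounts (Subread 2.0.1), Salmon 1.5.2, Trim Galore 0.6.7, StringTie 2.2.1, DESeq2 1.28.0, bedtools 2.30.0, Picard 2.27.4 and SAMtools 1.15.1, on build GRCm39, with no roles named. The use of strand in counting is not stated there.

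The authors' counts were whole numbers and were not normalized. The authors' FPKM values served here only to read transcript lengths, and the authors' TPM values, scaled by length and library, served for levels between genes. Of 24063 symbols, 21.9% had several transcripts, and the transcript with the highest mean count was kept. Genes were filtered with filterByExpr (14006 kept) and tested with edgeR 4.0.16 (TMM, robust quasi-likelihood, all 9 libraries in 1 fit, limma 3.58.1, R 4.3.3) with Benjamini-Hochberg adjustment over all of them; a call is an adjusted p below 0.05. The test was also run on simulated data with independent libraries. These do not hold the shared deviation of the libraries numbered 1, and no result here rests on them. CPM values are counts scaled to a TMM-normalized library of 1000000, and log2 CPM used a prior count of 2. The members and lists were chosen with earlier results of these data known. All 10 members are named; of each list, up to 4 genes with the smallest p against control and genes described beside them, and of the Krüppel-like and Sp families any detected gene. A gene that this rule would name is not reported here. Samples were grouped by the labels. Alternatives were other normalizations, filters, tools (DESeq2 1.42.0, limma-voom), a replicate block, and libraries left out.

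The replicate numbers were checked for pairing by the correlation of same-numbered libraries' deviations from their group means. Between scramble and control these were 0.48, 0.21 and 0.17, all over 0.1, which met the criterion for pairing. Scramble 2 also correlated with control 3 (0.24) and scramble 3 with control 2 (0.12), so the numbers set library 1 apart but do not separate libraries 2 and 3, and the labels name no shared day or batch. With 1C-MIM they ranged from 0.028 to 0.19 and were not all over 0.1, so the criterion was not met. The 1C-MIM library numbered 1 had 0.15 with scramble 1 and 0.19 with control 1. With the scramble and control libraries numbered 2 and 3 it had -0.18 to -0.05.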

Additional observations from a re-analysis of the deposited data

How the results depend on the processing

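Against control, 7 to 8 members were called when each library was left out in turn, 2 to 3 of them higher, and 4 were higher without the 3 libraries numbered 1, where Klf5 and Klf9 were added. For Klf5 this follows from leaving out libraries that stood apart by its own values. For Klf9 the 1C-MIM library left out was the lowest of its group, which also widens the difference by construction. Klf13 was also called lower against control with upper quartile scaling (-0.12, adjusted p = 0.042) and with library size alone (-0.14, adjusted p = 0.020). Against scramble, 5 to 9 were called in these leave-outs, 0 to 3 of them higher; the 5 came without the scramble library numbered 3. The number higher was 1 with library size alone and with no filter on low counts, where Klf15 was lost, and at an adjusted p below 0.01 it was 0 of 5 called, the construction of that threshold. Over all settings, 205 of 210 member values kept direction and side of the threshold against control, and 186 of 210 against scramble, where 17 calls were lost and 7 gained; no value of 1C-MIM changed sign.

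Between 1C-MIM and the other groups the criterion for pairing was not met, though the libraries numbered 1 correlated weakly (0.15 with scramble and 0.19 with control). With the replicate block Klf5 was called against scramble (0.49, adjusted p = 0.028), no other member's call changed in either comparison, and scramble against control still had 0 genes called, with 690 at an unadjusted p under 0.05. Klf5 was also called against scramble by DESeq2 (0.47, adjusted p = 0.020), limma-voom (0.47, adjusted p = 0.046) and a fit of the compared groups alone (0.46, adjusted p = 0.0046). Counts within lists also moved. Against control, 3 cofactors rose and 4 genes of the ERK5 list fell with library size alone, against 5 and 2 otherwise. The single KLF5 partner that fell became 2 with DESeq2 or the block and 0 with the compared groups alone. Against scramble, the 1 other Krüppel-like factor that fell became 2 with library size alone, the compared groups alone, the block or without the libraries numbered 1. The KLF5 partners that fell against scramble were 2 with DESeq2, the compared groups alone or the block and 3 without the libraries numbered 1, where 6 cofactors rose in place of 3. At an adjusted p below 0.01 several of the lists' smaller counts were lower, among them the other Krüppel-like factors that fell against control (1 in place of 3) and the Sp factors that fell against scramble (3 in place of 5).

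For scramble against control, DESeq2 called 30 genes, all higher, and 96 (81 higher, 15 lower) were called without the libraries numbered 1, 5 of them pathway genes (2 higher, 3 lower); leaving out single libraries gave 0 to 3 calls (0 to 2 higher, 0 to 1 lower), the 3 without the control library numbered 1. The cause was not tested. Log2 differences between scramble and control that were not called changed sign. Those of Klf4, Klf6 and Klf9 were near 0: Klf6 was -0.000617 with upper quartile scaling, -0.00866 with library size alone, -0.000117 with a filter of 1 CPM and -0.0219 without the libraries numbered 1; Klf4 was -0.000822 with library size alone and -0.00229 without the libraries numbered 1; Klf9 was -0.000282 with library size alone. With single libraries left out the differences ran from -0.0286 to 0.0633 for Klf4, -0.274 to 0.145 for Klf5 (-0.13 with all libraries, 0.145 without the control library numbered 1), -0.0411 to 0.0346 for Klf6 and -0.0160 to 0.0579 for Klf9. Summed over both transcripts, Klf10 had 25.4 TPM in 1C-MIM, 34.4 TPM in scramble and 37.1 TPM in control. Depth limits Klf15, with 25 to 60 counts per library.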
